A study of Mus musculus with 2 samples.

Results

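The glutamatergic nuclei described here were chosen for high counts of Otof, Smoc2, Nectin3, Trpc6 and Ccbe1, and they are called Otof Smoc2 nuclei below. They came from entorhinal cortex, profiled by droplet sequencing of single nuclei, in which a barcode marks the RNA of 1 droplet and each RNA molecule captured carries its own identifier (UMI). Nuclei with at least 6000 UMIs, at least 2 UMIs of the vesicular glutamate transporter Slc17a7 and at most 3 UMIs of the GABA-synthesizing enzymes Gad1 and Gad2 together were kept first. The log-normalized counts of the 5 genes were then expressed in standard deviations from their mean over all kept nuclei, and a nucleus was a member where the mean of these 5 values was at least 0.8. The first step kept 3844 of 12918 nuclei, and 484 of them were members. The remaining 3360 kept nuclei serve for comparison and are called the other gated nuclei.

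Both libraries were made from male APP/PS1 mice, which carry transgenes that lead to amyloid deposition, at 18 months of age. In 1 library the mice had received N-oleoyl-leucine (OLE, labelled C18:1-Leu) at 25 mg/kg/day in alkaline drinking water from 15 months of age on, and in the other the DMSO vehicle by the same route and for as long. Each library pooled the tissue of 5 mice whose nuclei cannot be told apart, no wild-type library was analysed here, and the promoter of the transgenes is not given in the sources used here. There is thus 1 library per condition and no replicate. No test between conditions was possible, the intervals given are 95% intervals of counting error only, and a gene is called higher or lower in OLE where its ratio was at least 1.5-fold.

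The entorhinal cortex links the neocortex with the hippocampus. Its superficial layers hold the neurons that project to the hippocampus, among them stellate cells rich in reelin (Reln) and pyramidal cells rich in calbindin (Calb1), and they are an early site of neuron loss in Alzheimer disease. Of the genes used for the choice, Otof encodes otoferlin, a calcium sensor of vesicle release in hair cells, Smoc2 a secreted calcium-binding protein of the extracellular matrix, Nectin3 a cell adhesion molecule of synaptic junctions, Trpc6 a cation channel, and Ccbe1 a secreted factor known from lymphatic growth.

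The vehicle library had 218 members with 5540775 UMIs and the OLE library 266 members with 5814573 UMIs. The median depth of a member was 24675 UMIs with vehicle and 20007.5 with OLE, against 21909 and 17835 in the other gated nuclei. Mitochondrial transcripts made up a median of 0.164% and 0.252% of the UMIs of a member. Among the members, 9 vehicle and 30 OLE nuclei were in the top 5% of doublet scores of their library. The libraries shared 14 barcodes, of which 0 were members in either library.

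The share of members among gated nuclei was 12.5% in the vehicle library (218 of 1741, exact binomial interval 11 to 14.2%) and 12.6% in the OLE library (266 of 2103, 11.3 to 14.1%). The difference was 0.127 percentage points, with an interval from -2.03 to 2.26. Of all nuclei deposited, members made up 3.23% and 4.31%, a difference of 1.08 points (0.409 to 1.75), but over that denominator the share also moves with the number of nuclei that passed the first step. Described below are 2 subgroups of members that came mostly from the OLE library. With their nuclei taken out of both the members and the gated nuclei, the difference was -2.13 points.

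The 5 genes of the choice are given as a description. Otof stood at 104 UMIs per 1000000 UMIs of the set (CPM) in vehicle members (577 UMIs) and 93.6 in OLE members (544 UMIs), and at 5.8 and 8.26 in the other gated nuclei. Smoc2 stood at 125 and 123 CPM in members against 6.04 and 7.89, and Nectin3 at 234 and 217 against 23.1 and 32.3. Trpc6 had 419 and 386 CPM in members against 36.4 and 36.8, and Ccbe1 234 and 185 against 27.1 and 27.9. All 5 were thus many times higher in members of both libraries, as the choice requires. Between libraries, the members' log2 ratio of OLE to vehicle was nearest to 0 for Smoc2 (-0.02, -0.18 to 0.13) and lowest for Ccbe1 (-0.34, -0.46 to -0.22). In the other gated nuclei Otof, Smoc2 and Nectin3 had log2 ratios of 0.51, 0.38 and 0.48.

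Few members held all 5 genes. A UMI of every one was found in 73 of 218 vehicle members and 63 of 266 OLE members, while 5 vehicle and 12 OLE members had only 2 of the genes. Of the other gated nuclei, 616 of 1523 in the vehicle and 719 of 1837 in the OLE library had none, and 2 and 3 had all 5. To set depth aside, each nucleus was thinned to 6000 UMIs. Otof was then found in 40.8% of vehicle and 37.6% of OLE members (70.2% and 60.9% before thinning), in 3.41% and 4.84% of the other gated nuclei, and in 1.56% and 0.867% of barcodes with oligodendrocyte markers, which should lack it and held a median of 3638.5 and 3263.5 UMIs. The score had a median of 1.38 over members and a highest value of 3.46. The lowest member had 0.801 and the highest nucleus left out just under 0.8. There were 46 members between 0.8 and 0.9 and 45 other gated nuclei between 0.7 and 0.8, so the choice cuts a range and does not fall in a gap. The 20 nuclei just inside held 111 Trpc6, 62 Ccbe1, 41 Nectin3, 21 Smoc2 and 16 Otof UMIs, and the 20 just outside 64, 50, 58, 24 and 30 UMIs in the same order.

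The name superficial-layer was checked against marker genes that the choice did not use. Since the same nuclei were used to choose and to describe, these values carry no test. Of 11 superficial-layer markers with at least 100 UMIs in members, 5 were at least 2-fold higher in members than in the other gated nuclei in both libraries, where 158 of 8980 genes (1.76%) were. Cux2, a transcription factor of upper-layer neurons, had 296 CPM in vehicle and 282 in OLE members against 126 and 130. Rasgrf2, an exchange factor for Ras found in upper layers, had 328 and 274 against 92.6 and 94.6, and Calb1 had 97.6 and 99.7 against 17.9 and 25.1. Rgs8 and Inhba were the others. Lamp5 had log2 ratios of 1.01 and 1.00, just around the 2-fold line, and Wfs1, which marks calbindin-rich pyramidal cells in this region, 1.79 and 0.76. Cux1, Pou3f2 and Lhx2 had log2 ratios between 0.50 and 0.73. Mdga1, which was also counted, was lower in vehicle members (11.7 CPM against 19.3, log2 -0.72) and at 0.29 in OLE members. Plcxd2 was lower in members, with 5.59 and 4.82 CPM against 16.1 and 19.6, but had too few UMIs to be counted.

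Markers of other layers were lower. Of 8 deep-layer markers with enough UMIs, 7 were at least 2-fold lower in members in both libraries, where 135 of 8980 genes (1.5%) were. Foxp2, a transcription factor of deep-layer neurons, had 9.57 and 17.7 CPM against 117 and 99.1, and the heparan sulfate enzyme Hs3st4 142 and 132 against 1062 and 980. Bcl11b, with log2 ratios of -2.02 and -0.87, was the exception. Of the middle-layer markers with enough UMIs, Rorb and the phospholipase Plch1 were lower and Cux1 was not. Reln, the reelin gene of stellate cells, had 58.7 and 41.4 CPM in members against 148 and 116. The other stellate markers with enough UMIs, Cobl, Gpc6 and Dcc, had log2 ratios between -1.07 and 0.36. Of the glutamatergic markers, Slc17a7, which the first step used, had log2 ratios of -0.11 and -0.05 and Camk2a 0.68 and 0.61, while Slc17a6 and Neurod6 were lower in members of both libraries. Of 7 hippocampal formation markers with enough UMIs, Plk5 and Pdzd2 were at least 2-fold higher in members of both libraries and Mpped1 was lower. Over all members, superficial-layer markers thus ran high, Calb1 among them, and Reln and deep-layer markers low.

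**Figure D1:**
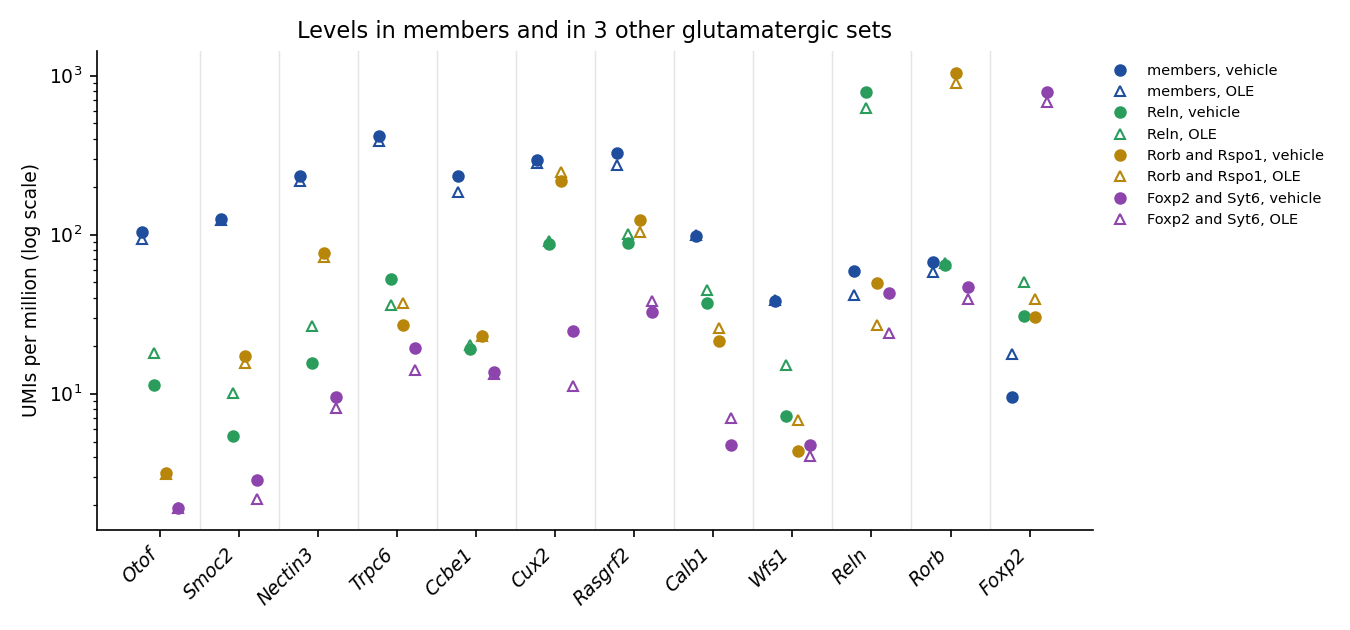
Levels of 12 genes in CPM, on a log axis, in members (blue) and in 3 sets of other gated nuclei chosen by Reln (green), by Rorb and Rspo1 (ochre) or by Foxp2 and Syt6 (purple), with filled circles for vehicle and open triangles for OLE. Calb1 was at 97.6 and 99.7 in members and at most 44.8 in the other sets, while Cux2 overlapped most with the Rorb and Rspo1 set, at 217 and 246.

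Members were set beside 3 other sets, 1 each with markers of stellate cells, middle and deep layers. Each set was chosen from the other gated nuclei by a mean of at least 0.8 standard deviations for its own genes, giving 546 nuclei for Reln, 476 for Rorb and Rspo1, and 376 for Foxp2 and Syt6. Cux2 was nearly as high in the Rorb and Rspo1 nuclei as in members. Gm765 was at 67.4 and 41.0 CPM there, against 116 and 89.8 in members and at most 10.8 in the Reln nuclei. The long noncoding RNA 9530026P05Rik was high in members (227 and 207) and in the Reln nuclei (98.0 and 116), and low in the Rorb and Rspo1 nuclei (18.6 and 32.2). Glis3, a zinc finger transcription factor, separated members from all 3 sets, with 168 and 203 CPM against at most 51.8. Without the 2 subgroups described below, which came mostly from the OLE library, Glis3 was at 168 and 127 CPM in members.

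Among genes that the choice did not use, Glis3 had the highest ratio of members to other gated nuclei by the smaller of its values in both libraries, with log2 ratios of 3.57 and 3.08. Of its 1181 UMIs in OLE members, 621 lay outside the 2 subgroups described below that came mostly from the OLE library. Clec18a, a lectin, followed with 3.33 and 2.54, and Stard8, a GTPase-activating protein, with 3.0 and 2.39. The kinase-like gene Plk5 (2.76 and 2.31), a marker on the hippocampal formation list, the lipoprotein lipase gene Lpl (2.86 and 2.25), and the neuronal pentraxin Nptx2, a secreted organizer of AMPA receptors (2.02 and 1.81), were also among the 15 highest. At the other end, the serotonin receptor Htr1f had log2 ratios of -2.96 and -3.09, and Il1rapl2, a synaptic organizer of the interleukin-1 receptor family, -3.88 and -2.95. Syt6 had 1 and 7 UMIs in members, and Gm14507 had 0 and 7, so that their ratios rest on very few molecules. With genes counted by their UMIs over members and other gated nuclei together (at least 500), which keeps genes that are low in members, 129 were higher and 299 lower of 10376.

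Neuronal function genes followed in both directions, each against the 1.76% and 1.5% of all genes. Among 22 glutamate receptor genes tested, the kainate receptor subunits Grik1 (29.8 and 34.2 CPM against 139 and 121) and Grik3 and the metabotropic Grm8 were lower in members. Of 13 GABA receptor genes, Gabrd, the delta subunit of extrasynaptic receptors, was higher (log2 1.16 and 1.34) and Gabra5 lower (-1.83 and -1.49). Of 35 potassium and HCN channel genes, the fast delayed rectifier subunit Kcnc2 was higher (396 and 369 CPM against 175 and 184). The potassium channel genes Kcnab1 (170 and 175 against 448 and 442), Kcnh5, Kcnn2 and Kcnk2 were lower. Among secreted peptides and growth factors, the opioid precursor Penk and the neurotrophin Ntf3 were higher, and the peptide-processing enzyme Pcsk1 and the Wnt agonist Rspo2 lower, beside Smoc2 and Ccbe1, which the choice made high. Of 62 adhesion and guidance genes, Cdh13, a cadherin anchored in the membrane by a lipid, was higher beside Nectin3, and Cntnap4, Il1rapl2, Tenm3, Sdk2 and Sema3e were lower. Of 34 cortical transcription factors, 1 (Cux2) was higher and 9 were lower, among them Satb1, Sox5 and Zfpm2.

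Clustered without the 5 genes of the choice, the members formed 7 subgroups. Their leading genes defined them and are named only to identify them. The largest, with 79 vehicle and 77 OLE nuclei, was led by Tmc1, Nptx2, Adgrd1, Baz1a and Ptgs2, and held Bdnf at 106 CPM against 17.2 to 75.8 in the others. The second had 46 and 43 nuclei and was led by Gm32647, Trhr (the receptor of thyrotropin-releasing hormone), Vwc2l, Dpyd and Ano4. Another with 36 and 35 nuclei, led by Prrg1, Gm48530, Nectin3, Gm12371 and Crispld1, had the highest median score (2.00). One with 40 and 40 nuclei was led by Rxfp1 (a relaxin receptor), Rmst, Tshz2, Gm26883 and Sdk1. The smallest, with 10 and 10 nuclei, was led by Vmn1r209, Dach1, Pld5, Smoc1 and Unc13c. These 5 subgroups were split nearly evenly between the libraries. They held 211 vehicle and 205 OLE members, 416 in all.

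The other 2 subgroups came mostly from the OLE library. One, led by Prox1, Sema5a, Adarb2, Zbtb20 and Maml2, had 2 vehicle and 26 OLE nuclei, 0.917% and 9.77% of the members, a difference of 8.86 points (4.81 to 13.2). Prox1 is a transcription factor known from dentate granule cells, interneurons and oligodendrocytes. Here it stood at 219 CPM, against 2.30 in the other members, and the dentate gyrus genes C1ql2 (112) and Dsp (25.3) were at most 6.96 and 0.499 CPM in each other subgroup. A list of 12 markers of the hippocampal formation summed to 5120 CPM in the OLE nuclei of this subgroup, against 845 to 1411 in the other subgroups of either library, and 2 of the 12, Fn1 and Nts, were at 0. Zbtb20, a leading gene of the subgroup that is also on this list, made up 3301 CPM of the sum. Its superficial-layer list was the lowest of all subgroups, at 613 CPM in OLE nuclei against 1210 and 1165 over all members, and Nectin3 (42.1), Cux2 (107) and Nptx2 (2.10) were low. The GABAergic list stood at 1578 in its OLE nuclei against 393 over all OLE members. Adarb2, a leading gene of the subgroup that is also on this list, made up 1422 CPM of the 1578. The microglial list stood at 367 against 92.5. Smoc2 (189) and Trpc6 (600) were the highest of all subgroups. The marker check thus goes against the superficial-layer name in these 28 nuclei, and they are called the Prox1 subgroup.

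The last subgroup, with 5 vehicle and 35 OLE nuclei (10.9 points, 6.02 to 15.8), was led by genes that included Apoe, Nxph1, Erbb4 and St18. Its nuclei had the lowest median depth (9933 UMIs), the highest mitochondrial share (0.954%) and the highest doublet scores, with 21 of 40 in the top 5%. The markers of glia, GABAergic neurons and vessels summed to 4876 CPM, against 558 to 1102 in the 5 balanced subgroups and 2414 in the Prox1 subgroup. In its OLE nuclei, none of the markers of GABAergic neurons, astrocytes, oligodendrocytes or microglia was at 0. It is called the mixed subgroup. Because both subgroups moved with the library, each result that follows was computed for all members and for the 416 members without them. This second set was formed after the subgroups had been seen. The other gated nuclei were used whole beside both sets.

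Prox1 itself showed the same imbalance nucleus by nucleus. At least 2 UMIs of it were found in 1 of 218 vehicle members (0.459%) and 22 of 266 OLE members (8.27%, 5.26 to 12.2). Among the other gated nuclei such counts were found in 13 of 1523 vehicle (0.854%) and 18 of 1837 OLE nuclei (0.980%), and among all nuclei in 210 and 242 (3.11% and 3.92%). The shares lay close together in the other gated nuclei and apart in members. After thinning, 40.9% and 39.0% of the barcodes with oligodendrocyte markers also held a Prox1 UMI. With 1 pool per condition, the tissue dissected and the treatment cannot be told apart.

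**Figure D2:**
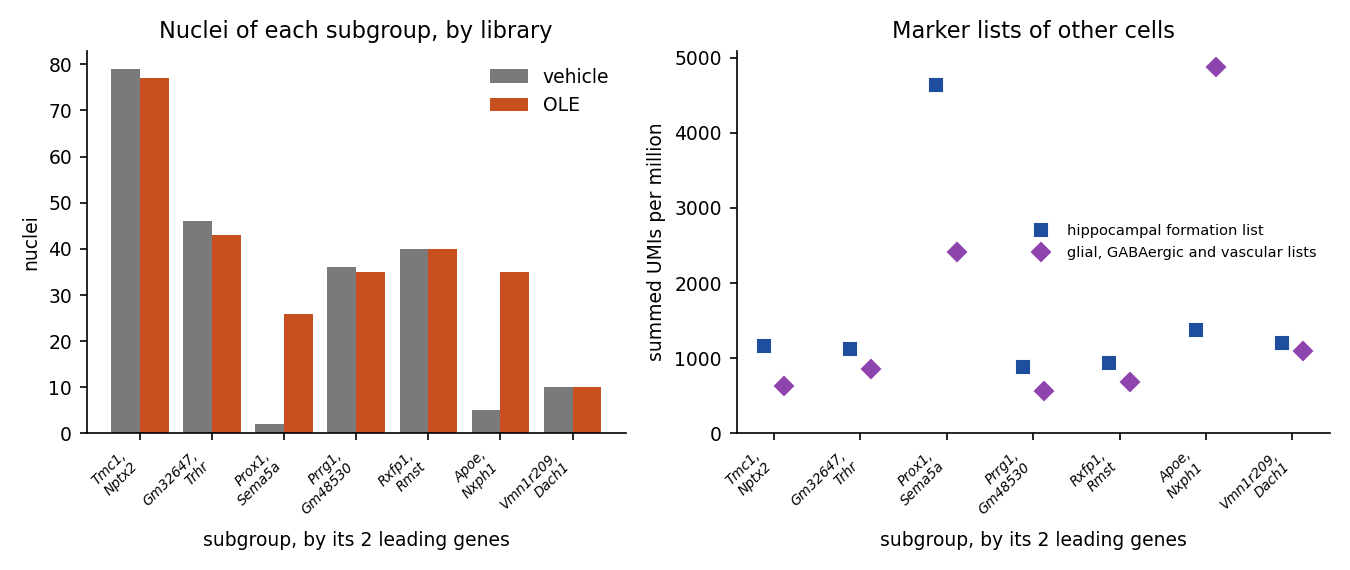
Left, the number of vehicle (grey) and OLE (orange) nuclei in each subgroup of members, named by its 2 leading genes. Right, summed CPM of the hippocampal formation list (blue squares) and of the glial, GABAergic and vascular lists (purple diamonds): the Prox1 subgroup holds 2 vehicle and 26 OLE nuclei and the mixed subgroup 5 and 35, and each stands highest in 1 of the lists.

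The genes of the choice varied among the subgroups. Otof ranged from 45.9 CPM in the Rxfp1 subgroup and 53.1 in the Tmc1 subgroup to 181 in the Gm32647 and 198 in the Vmn1r209 subgroup. Ccbe1 ran the other way, with 291 and 285 in the Rxfp1 and Tmc1 subgroups, 99.0 in the Gm32647 subgroup and 0 UMIs (of 474519 for all genes) in the Vmn1r209 subgroup. Smoc2 varied least, between 98.6 and 189. Cux2 was highest in the Tmc1 subgroup (405) and lowest in the Vmn1r209 subgroup (78.0), and Calb1 had 192 in the Vmn1r209 and 52.4 in the Rxfp1 subgroup. Reln was at 388 CPM in the Vmn1r209 subgroup and at most 50.5 in every other. Of the superficial-layer list, Cux1 (84.3), Cux2, Lamp5 (8.43), Mdga1, Pou3f2, Plcxd2 and Inhba were lower in the Vmn1r209 subgroup than in the other gated nuclei. Calb1, Rasgrf2 (171), Rgs8 and Lhx2 (82.2) were higher, and Wfs1 lay between the values of the libraries. The marker check was thus mixed in these 20 nuclei. The deep-layer list stood at 1637 CPM in vehicle and 1153 in OLE nuclei of the Rxfp1 subgroup. It ran from 191 to 880 in the other subgroups. The Rxfp1 subgroup thus held both superficial-layer genes and Tshz2 (871 CPM). Of its 40 vehicle and 40 OLE nuclei, 12 were in the top 5% of doublet scores, against at most 1 in each other balanced subgroup. The part of doublets in this overlap was not tested. At other settings of the clustering there were 5, 8 or 10 subgroups. The Prox1 nuclei formed a subgroup of their own at each: 23 of the 28 at the lowest resolution, all 28 at the highest, and 22 of the 25 left after removal of nuclei with high doublet scores. The mixed nuclei, described above, did not do so at every setting. At the lowest resolution all 40 lay in a subgroup of 18 vehicle and 54 OLE nuclei. At the highest, all 40 formed their own subgroup of 5 and 35 nuclei. After removal of nuclei with high doublet scores, 18 of them lay in a subgroup of 4 and 19 nuclei.

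Between the libraries, 616 of 8980 genes with at least 100 UMIs in members were at least 1.5-fold higher in OLE (6.86%) and 42 at least 1.5-fold lower (0.468%). The higher genes made up 93.6% of these, but the median over all genes was itself at a log2 ratio of 0.08. When both libraries were scaled to that median instead, 424 genes were higher and 82 lower, 83.8% higher. Without the Prox1 and mixed subgroups, 356 of 8560 genes (4.16%) were higher and 57 (0.666%) lower, with a median of 0.05, and with the other scaling 265 and 87. In bulk sums such as these, a lower share of 1 kind of RNA and a higher share of another cannot be told apart.

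Among genes with at least 200 UMIs, Zbtb20 had the highest ratio. This zinc finger repressor, known for hippocampal pyramidal identity and also found in astrocytes, went from 321 UMIs (57.9 CPM) in vehicle to 2702 UMIs (465 CPM) in OLE members, a log2 ratio of 3.0 (2.84 to 3.18). Of the OLE UMIs, 1395 lay in the Prox1 subgroup. Without the Prox1 and mixed subgroups the counts were 308 and 1031, a log2 ratio of 1.90 (1.71 to 2.08), and the other gated nuclei had 0.91. Most of the remaining OLE UMIs were in the Gm32647 subgroup, where Zbtb20 went from 100 to 681 UMIs (84.3 to 584 CPM, log2 2.79). There, 3 nuclei held 368 of the 681 UMIs, and after thinning Zbtb20 was found in 15 of 46 vehicle and 23 of 43 OLE nuclei. The log2 ratio was 0.67 in the Tmc1, 1.04 in the Rxfp1, 1.02 in the Vmn1r209 and, with 31 and 24 UMIs, -0.12 in the Prrg1 subgroup.

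The next highest genes rested on the unbalanced subgroups to different degrees. Sema5a, a guidance molecule, went from 39 to 303 UMIs (log2 2.89), and Adarb2, an RNA-binding protein marking a class of interneurons, from 162 to 992 UMIs (2.54). Without these subgroups their log2 ratios were -0.01 (-0.72 to 0.70) and -0.21 (-0.56 to 0.15). Apoe, the main lipoprotein of astrocytes and microglia, went from 168 to 616 UMIs (1.80), above the other gated nuclei (1.16). Without these subgroups it went from 160 to 195 UMIs (0.44, 0.13 to 0.75). Apoe was a leading gene of the mixed subgroup, and no such nuclei were taken out of the other gated nuclei. Kcnmb2, an auxiliary subunit of large-conductance potassium channels, kept 1.57 of 1.84, from 49 and 131 UMIs, of which 79 OLE UMIs were in 3 nuclei. Grin3a, an NMDA receptor subunit, had 1.63 and then 1.05, Nkain3, a partner of the sodium pump, 1.57 and then 1.09, and Lmo3 1.43 and then 0.94. The AMPA receptor auxiliary protein Shisa6 had 1.43 and then 0.83.

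Bex2, a small intracellular adaptor protein, had the same value with and without the subgroups. It went from 92 to 265 UMIs (1.46, 1.11 to 1.81), and from 83 to 205 UMIs (1.46) in the 416 members. No nucleus held more than 6 of its UMIs, and in nuclei thinned to 6000 UMIs it was found in 17 of 218 vehicle and 81 of 266 OLE members. Its log2 ratios in the 4 larger balanced subgroups ran from 1.36 to 1.68, and it was 0.82 in the other gated nuclei. The ratio of Bex2 was thus spread over nuclei and subgroups, in contrast to Sema5a and Adarb2.

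**Figure D3:**
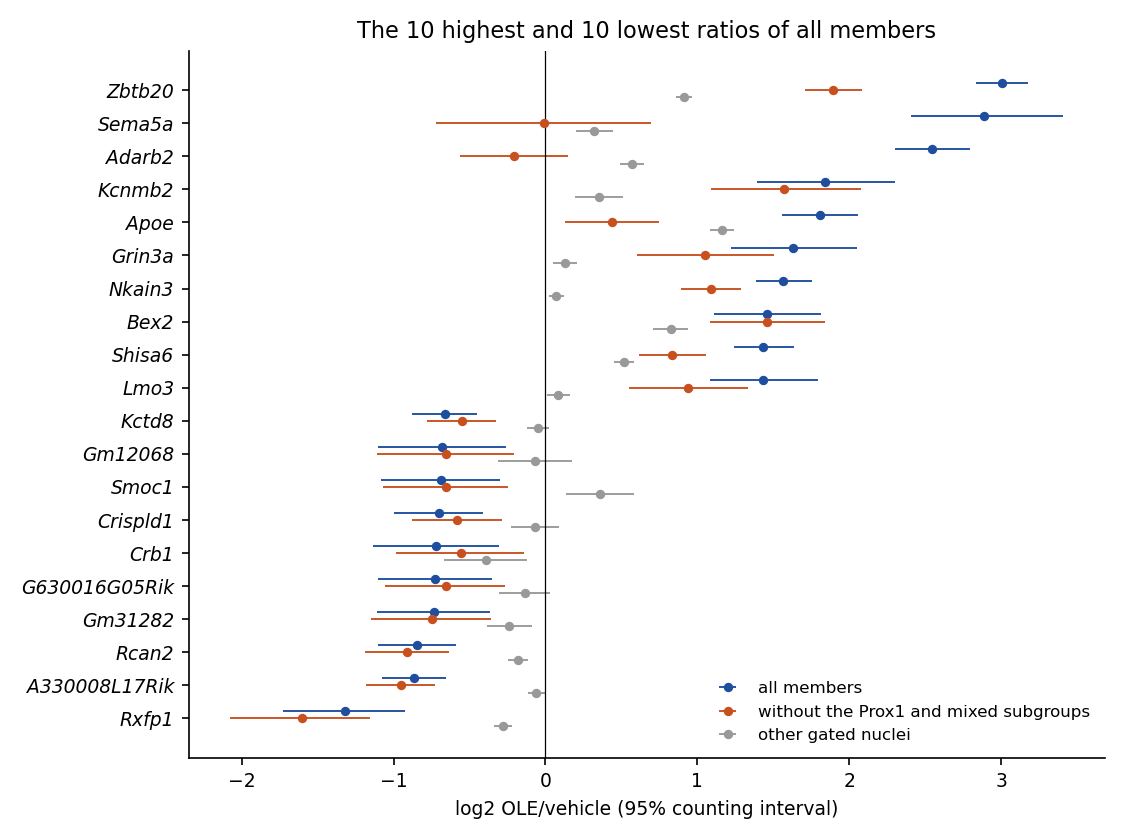
log2 ratios of OLE to vehicle with 95% counting intervals for the 10 highest and 10 lowest genes over all members, in all members (blue), in the 416 members without the Prox1 and mixed subgroups (orange) and in the other gated nuclei (grey). Sema5a and Adarb2 fall from 2.89 and 2.54 to -0.01 and -0.21 without these subgroups, while Bex2 stays at 1.46.

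Fewer genes were called lower than higher, and Rxfp1 had the lowest ratio among genes with at least 200 UMIs. Rxfp1 went from 181 to 76 UMIs (-1.32, -1.73 to -0.93), but 102 of the vehicle UMIs came from 1 nucleus, and without the nucleus with the most UMIs in each library the log2 ratio was -0.35. A330008L17Rik, a noncoding RNA with 515 and 297 UMIs (-0.86), likewise had 103 UMIs in 1 vehicle nucleus and -0.63 without it. Rcan2, an inhibitor of the calcium-dependent phosphatase calcineurin, went from 339 to 198 UMIs (-0.85, -1.11 to -0.59). At most 21 of its UMIs were in 1 nucleus, it was found in 55 of 218 vehicle and 40 of 266 OLE members after thinning, and its log2 ratios were -0.98 in the Tmc1, -0.20 in the Gm32647, -0.47 in the Prrg1 and -1.27 in the Rxfp1 subgroup. Its value in the other gated nuclei was -0.18. Gm31282, G630016G05Rik, Crb1, Crispld1, Smoc1, Gm12068 and Kctd8 had log2 ratios between -0.73 and -0.66, but Smoc1 turned to 0.23 when members were scored from thinned counts.

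In the 416 members, further genes stood at the extremes. Scg2, a granin precursor of secreted peptides, went from 110 to 240 UMIs (log2 1.28), the ubiquitin gene Ubb from 161 to 300 (1.05), the neuropeptide gene Cck from 340 to 630 (1.04) and Vgf, another precursor of secreted peptides, from 153 to 277 (1.01). In the other gated nuclei these 4 had 1.05, 1.03, 1.13 and 0.77. Chrna7, the alpha-7 nicotinic acetylcholine receptor, went from 135 to 240 UMIs (0.98) and was at -0.01 in the other gated nuclei. Ndst4, a heparan sulfate enzyme, had 75 and 150 UMIs (1.15), of which 53 came from 1 OLE nucleus of the Rxfp1 subgroup, and 0.74 without the top nucleus of each library. Among the lowest were the sodium channel Scn9a (156 and 69 UMIs, -1.02) and the glutamate transporter Slc1a3 (253 and 121 UMIs, -0.91). Over all members they had -0.30 (-0.64 to 0.04) and -0.12 (-0.38 to 0.14). Slc1a3 is on the astrocyte list, and the subgroups left out held OLE UMIs of it but no vehicle UMIs.

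The differences from the other gated nuclei were compared directly, as the members' log2 ratio less that of the other gated nuclei. It reached 1.5-fold in 287 of 8976 genes (3.20%), upward in 185 (2.06%) and downward in 102 (1.14%). In the 416 members it did so in 216 of 8556 genes (2.52%), upward in 93 (1.09%) and downward in 123 (1.44%). The 5 highest of these with at least 200 UMIs were Ndst4, Nkain3, Chrna7, Zbtb20 and Raver2, and the 5 lowest Slc1a3, Scn9a, Rxfp1, Glis3 and Adam33. No nuclei were taken out of the other gated nuclei, so that members alone were filtered for other cell types. For Slc1a3 the difference was -1.56 in the 416 members and -0.77 over all members. Glis3, the gene that most set members apart, had 911 and 621 UMIs in the 416 members, a log2 ratio of -0.40 (-0.55 to -0.25), against 0.77 in the other gated nuclei. Over all members it was 0.28. Wfs1 had 0.03 in members (212 and 227 UMIs) and 1.06 in the other gated nuclei. The 5 genes of the choice, given only as a description, also had lower log2 ratios in members, with differences from -0.67 (Otof) to -0.14 (Trpc6). Whether such differences depend on where the choice cuts was not tested.

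Several of these differences were large in the Gm32647 subgroup. Besides Zbtb20, Nkain3 went from 102 to 363 UMIs there (1.86), Chrna7 from 31 to 104 (1.77), and Kcnmb2 from 11 to 51 (2.24), of which 27 were in 1 nucleus. Scn9a went the other way, from 127 to 37 UMIs (-1.75), Slc1a3 from 182 to 64 (-1.48) and Glis3 from 436 to 251 (-0.77). The nuclei of this subgroup had a median depth of 23821 UMIs in vehicle and 22397 in OLE. Trpc6, whose level the choice itself depends on, is given only as a description: its log2 ratio was -0.86 in the Gm32647 and -0.44 in the Prrg1 subgroup, and 0.22, 0.55 and 0.66 in the Tmc1, Rxfp1 and Vmn1r209 subgroups. Whether the Gm32647 subgroup holds the same mixture of cells in both libraries was not tested.

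**Figure D4:**
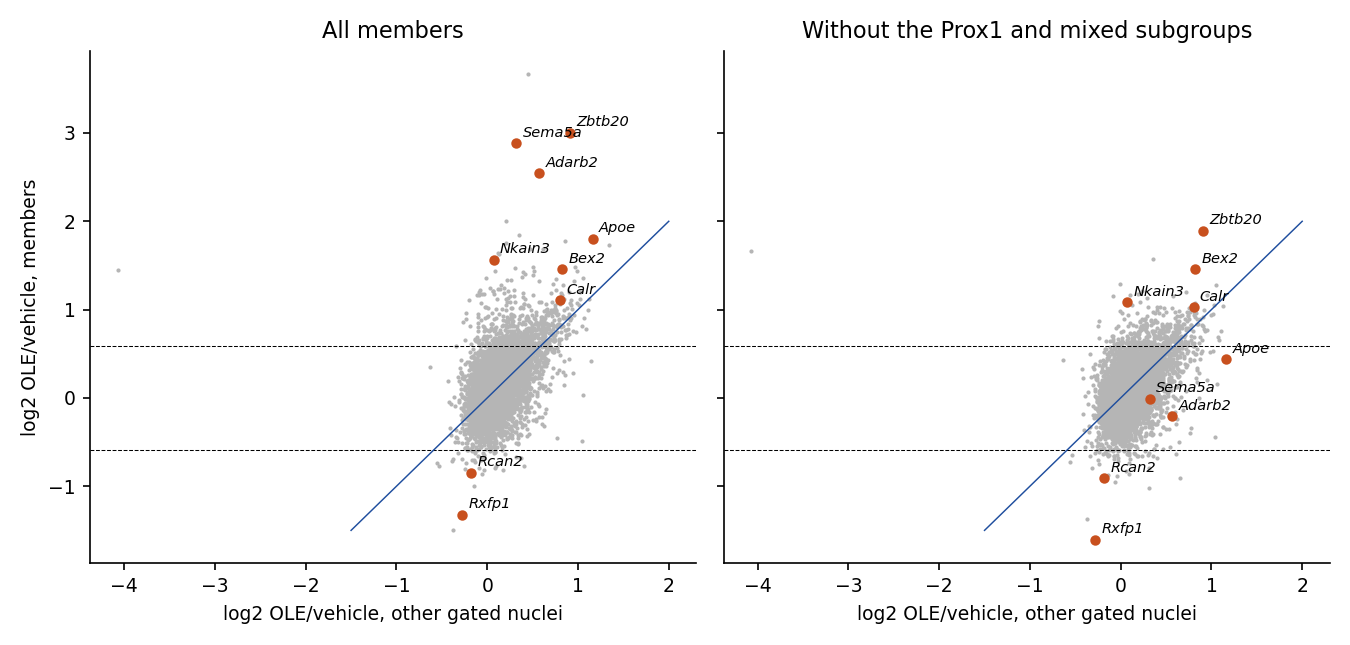
Each point is a gene, with its log2 ratio of OLE to vehicle in the other gated nuclei on the horizontal axis and in members on the vertical axis, for all members (left) and without the Prox1 and mixed subgroups (right). The line marks equal ratios and the dashed lines 1.5-fold. Sema5a and Adarb2 leave the top of the plot on the right, where Zbtb20 stands at 1.90.

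Genes of protein folding in the endoplasmic reticulum (ER) stood on the high side. The ER folds and ships membrane and secreted proteins, and when unfolded proteins build up there, the transcription factors ATF6 and XBP1 switch on chaperone genes. Many of these carry the ER stress element in their promoters, in which CCAAT, bound by NF-Y, and CCACG, bound by ATF6, are held 9 bases apart. Of 30 genes on the ER list, 25 had at least 100 UMIs in members. Of those, 11 were at least 1.5-fold higher in OLE, where 6.86% of all genes were, and 0 were lower. Their median log2 ratio was 0.56, against 0.08 over all genes. In the 416 members 10 of 22 were higher, against 4.16%, with a median of 0.45. The other gated nuclei had a median of 0.45 too.

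Calr, the lectin chaperone calreticulin, had 240 UMIs (43.3 CPM) in vehicle and 544 UMIs (93.6 CPM) in OLE members, a log2 ratio of 1.11 (0.89 to 1.34). Hspa5, the ER Hsp70 BiP, went from 205 to 415 UMIs (0.95, 0.70 to 1.20), and Hsp90b1, the ER Hsp90, from 363 to 644 UMIs (0.76, 0.57 to 0.95). Without the unbalanced subgroups they had 1.02, 0.83 and 0.69, and in the other gated nuclei 0.80, 0.78 and 0.70. After thinning, Calr was found in 51 of 218 vehicle and 116 of 266 OLE members and Hspa5 in 42 and 89, with no nucleus above 13 Calr UMIs. Within the 4 larger balanced subgroups Calr ranged from 0.69 to 1.30 and Hspa5 from 0.76 to 1.00. The ubiquitin ligase Syvn1 (0.88), the translocon-associated Ssr3 (0.86) and Ssr2 (0.65), the co-chaperone Dnajb11 (0.78), the disulfide isomerases P4hb (0.74) and Pdia6 (0.66), Herpud1 (0.73), and the secreted stress protein Manf (0.68) were also past 1.5-fold. Atf4, a factor of the stress response, had 103 and 100 UMIs (-0.11), and Sel1l (0.08), Dnajc10 (-0.12) and Ero1l (-0.01) were near 0.

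Promoter sequences from RefSeq on GRCm38.p6, from 250 bases before to 50 after the start, were found for 25 genes of the ER list. The ER stress element was searched on both strands, and CCAAT and CCACG were not counted alone. It was in the promoters of 8 of these 25 genes (32.0%), against 37 of 27025 genes with a promoter (0.137%). Since the ER list holds genes of the kind known to carry this element, the contrast is a description and no test, as are the promoter counts of other lists below. The 8 were Hspa5, Hsp90b1, Calr, Canx, Pdia6, Dnajc3, Creld2 and Syvn1. Shown are the elements of the 5 genes among them that were past 1.5-fold in members, with 5 bases on either side, read along the gene's strand. Capitals mark the element, which reads CGTGG to ATTGG where it lies on the other strand. The coordinates are chr2:34772020-34772048 (Hspa5, plus strand), chr8:84847070-84847098 (Calr, minus strand), chr10:86705633-86705661 and chr10:86705528-86705556 (Hsp90b1, minus strand), chr12:17266486-17266514 (Pdia6, plus strand) and chr19:6046527-6046555 (Syvn1, plus strand).
Hspa5: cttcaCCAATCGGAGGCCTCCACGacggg
Calr: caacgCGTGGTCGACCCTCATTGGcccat
Hsp90b1 upstream element: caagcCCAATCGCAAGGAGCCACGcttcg
Hsp90b1 downstream element: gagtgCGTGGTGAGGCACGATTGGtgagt
Pdia6: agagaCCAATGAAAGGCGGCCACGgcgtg
Syvn1: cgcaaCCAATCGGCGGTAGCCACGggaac

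The 7 genes with the element and at least 100 UMIs had log2 ratios from 0.36 to 1.11 with a median of 0.76, and 5 of them were past 1.5-fold. The 13 genes of the list with a promoter but without the element ran from -0.25 to 0.86 with a median of 0.49, and 4 were past it. In the 416 members the medians were 0.69 and 0.43. The ranges overlap, and the match describes these letters in this window and not binding.

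Cytosolic and mitochondrial chaperones stood less high. Of 24 tested, 8 were at least 1.5-fold higher in OLE members against 6.86% of all genes, with a median of 0.38 (7 of 24 and 0.33 in the 416 members). Cct5, a subunit of the chaperonin that folds actin and tubulin, had 47 and 115 UMIs (1.22), and the constitutive Hspa8 254 and 501 (0.91), which was 0.69 in the 416 members and 1.07 in the other gated nuclei. Hsp90ab1 went from 277 to 505 UMIs (0.80). The stress-inducible Hspb1 and Bag3 were barely detected, with 1 and 1 and with 2 and 3 UMIs. A heat shock element (GAA and TTC in turn, spaced by 2 bases) was found in the promoters of Hsph1, Dnajb6, Hspe1 and Hspd1, 4 of 22 (18.2%) against 0.662% of all genes. Hsph1, Dnajb6 and Hspd1 had log2 ratios of 0.26, 0.31 and 0.38, and Hspe1 had under 100 UMIs.

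Other lists of widely used genes stood on the high side too, and the counts below compare with 6.86% of all genes in members and 4.16% in the 416 members. Of 37 housekeeping genes for membrane and secreted proteins, 19 were past 1.5-fold in OLE members with a median of 0.59 (12 of 36 and 0.43 in the 416 members). They included Itm2b, a membrane protein that binds the amyloid precursor protein (419 and 964 UMIs, 1.13), the tetraspanin Cd81 (1.20), the glycoprotein basigin (Bsg, 1.07), the lysosomal protease Ctsb (1.01) and Cst3, a secreted protease inhibitor (1.12, but 0.54 in the 416 members). Of 35 cytosolic housekeeping genes 13 were higher, with a median of 0.50 (10 and 0.40), among them Ubb (1.20) and Actg1 (1.12). Of 26 ribosomal protein genes 18 were higher, with a median of 0.69 (13 of 24 and 0.61), led by Rpl32 (1.27) and Rpl8 (1.19). Nuclear genes of the respiratory chain had a median of 0.43 with 6 of 31 higher (0.29 and 5 of 30), and the 11 mitochondrially encoded genes had a median of 0.31, with 0 past 1.5-fold, and 0.13 in the 416 members. The medians of these lists in the other gated nuclei, in the same order, were 0.48, 0.53, 0.64, 0.36 and 0.01.

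Gene length moved with the ratio. Genes under 10 kb had a median log2 ratio of 0.33 in members and 21.9% of them were called higher. The median was 0.15 from 10 to 30 kb, 0.05 from 30 to 100 kb, -0.01 from 100 to 300 kb and -0.04 above 300 kb. In the 416 members it ran from 0.25 to -0.05, and in the other gated nuclei from 0.28 to -0.05. Counts on pre-mRNA take in introns, so that long genes are counted mostly from unspliced RNA and short ones less so. The median gene length of the ER list was 17.3 kb, of ribosomal protein genes 4.54 kb, and of adhesion and guidance genes 725 kb. The part of gene length, depth or spliced RNA outside nuclei in these ratios was not tested.

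**Figure D5:**
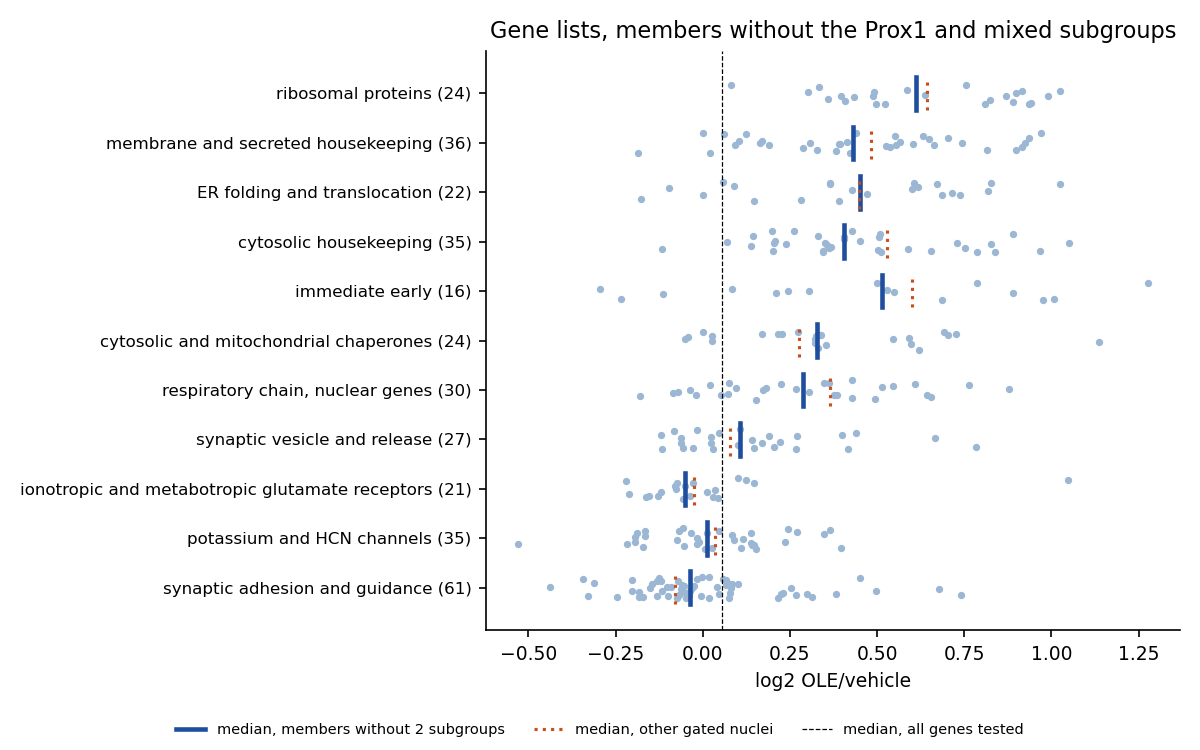
log2 ratios of OLE to vehicle in the 416 members for the genes of 11 lists (points), with the number of genes tested in parentheses, their median (blue bar), the median of the same list in the other gated nuclei (dotted orange bar) and the median of all genes in the 416 members (dashed line, 0.05). Ribosomal, housekeeping and ER genes lie to the right, at medians of 0.40 to 0.61, and channels, glutamate receptors and adhesion genes near 0.

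Immediate early genes, which neurons switch on within minutes of activity, were mixed. Of 16 tested, 6 were at least 1.5-fold higher in OLE members, where 6.86% of all genes were, with a median of 0.51 in members and in the 416 members alike, and 0.60 in the other gated nuclei. Scg2 (1.36), the transcription factors Egr3 (53 and 111 UMIs, 1.00), Nr4a2 (0.92), Nr4a3 (0.74) and Junb (0.71), and Vgf (0.94) were the 6. Others of the list were not among them: Arc had 60 and 54 UMIs (-0.22, -0.78 to 0.33), Npas4 70 and 59 (-0.32) and Egr1 107 and 107 (-0.07). In the other gated nuclei these 3 had 0.61, 0.62 and 0.43. Fos, with 21 and 30 UMIs, was too rare to be counted. The full cAMP response element TGACGTCA was in the promoters of Dusp1, Btg2 and Scg2, 3 of 19 genes with a promoter (15.8%) against 2.03% of all genes.

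Of the secreted peptides and growth factors, 6 of 22 were higher in OLE members against 6.86% of all genes, with a median of 0.27 (5 of 21 against 4.16%, and 0.21, in the 416 members). The 22 include Smoc2 and Ccbe1, which the choice used and which were not among the 6. Besides Scg2 and Cck (345 and 789 UMIs over all members, 1.12), these were the granins Chga (0.98) and Chgb (0.83), the synaptic complement-like protein C1ql3 (0.94), and Bmp3 (0.64). Cck was found in 74 of 218 vehicle and 140 of 266 OLE members after thinning, and its log2 ratio was 0.65 to 1.52 in the 4 larger balanced subgroups. Bdnf, the growth factor held mostly by the Tmc1 subgroup, had 269 and 346 UMIs (0.29, 0.06 to 0.53), Penk 0.32 and Ntf3 0.24, and Pcsk2 -0.17.

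Synaptic and channel genes had medians near 0, and the counts below compare with 6.86% of all genes called higher in OLE members. None of 35 potassium and HCN channel genes, 13 GABA receptor genes or 28 calcium channel and signalling genes was past 1.5-fold in either direction, with medians of 0.04, 0.06 and -0.02. Of 22 glutamate receptor genes, Grin3a and Grik3 (0.78, but 0.01 in the 416 members) were higher, and the abundant Grm7, Grm5, Grin2b and Grin2a lay between -0.20 and 0.10. Of 27 genes of synaptic vesicles and release, Rab3a (0.96) and Syt4 (0.61) were higher, and Syt1, with 27043 and 26499 UMIs, was at -0.10. Of 62 adhesion and guidance genes, Sema5a, Sema3e (0.97), Slit2 (0.81), Nlgn3 (0.60) and Il1rapl2 (0.59) were higher and the median was -0.07. Sema5a was at -0.01 in the 416 members, and Il1rapl2 turned to -0.52 when members were scored from thinned counts. The most abundant of them, Ptprd, Csmd1, Dlg2 and Nrxn3, lay between -0.19 and -0.16.

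Layer markers were compared in the same way, with 6.86% of all genes higher and 0.468% lower in OLE members. Of the 11 superficial-layer markers, Mdga1, an adhesion molecule of upper-layer neurons, was higher (65 and 156 UMIs, 1.19, and 1.17 in the 416 members), with 0.19 in the other gated nuclei. Cux2 (-0.07), Calb1 (0.03) and Rgs8 (0.19) were near 0 and Rasgrf2 was at -0.26. Of 8 deep-layer markers, Bcl11b (138 and 334 UMIs, 1.21), Parm1 (1.18), Etv1 (0.90) and Foxp2 (53 and 103 UMIs, 0.89) were higher, and Rxfp1 and Tshz2 (1832 and 1269 UMIs, -0.60) lower. In the 416 members the first 4 had 0.62, 0.82, 0.68 and 0.87, and in the other gated nuclei -0.23 to 0.08. Among the 34 cortical transcription factors, 8 were higher and 1 lower. Nfia (1.07) and Zfpm2 (0.67) were at 0.09 and 0.11 in the 416 members. Of the stellate markers Gpc6 was lower (3387 and 2354 UMIs, -0.59, and -0.52 in the 416 members) and Reln had -0.50.

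Markers of other cell types were also higher in OLE members, and they moved with the unbalanced subgroups. The 12 GABAergic markers summed to 161 CPM in vehicle and 393 in OLE members, against 154 and 149 in the 416 members. The 10 astrocyte markers summed to 338 and 485, and to 341 and 337 in the 416 members, and the 12 microglial markers to 62.1 and 92.5, and to 52.9 and 59.6. The 10 oligodendrocyte markers summed to 173 and 201, and to 150 and 125. Of the defining genes, only Agt of the astrocyte list was at 0 in vehicle members, and none of these 4 lists had a gene at 0 in OLE members. Since the mixed subgroup was set apart by these markers, lower sums without it follow from how it was chosen, and the part of other cell types in the ratios of the ER and housekeeping lists was not tested.

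Genes of amyloid precursor protein processing and of the metabolism of OLE were read because of the model and the treatment. App, whose count was not separated from RNA of the transgene, had 2945 and 3480 UMIs (0.17, 0.10 to 0.24). Of 21 genes of the App list, 6 were higher over all members, against 6.86% of all genes, and 2 of 20 in the 416 members, against 4.16%. Aph1a (0.74) and Psenen (0.87), subunits of gamma-secretase, had 68 and 119 and 38 and 73 UMIs. Pm20d1, whose enzyme makes and breaks N-acyl amino acids, had 0 UMIs in vehicle and 2 in OLE members. Faah, which also hydrolyzes them, had 607 and 632 UMIs (-0.01, -0.17 to 0.15). Of 11 genes of this list, Gde1, a phosphodiesterase of the N-acylethanolamine pathway, was higher (143 and 243 UMIs, 0.70), with 0.50 in the 416 members, and the monoglyceride lipase Mgll had -0.24 (-0.44 to -0.03). The cannabinoid receptor Cnr1 had 172 and 240 UMIs (0.41, 0.12 to 0.70). The median of the list was 0.08, as over all genes.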

How the data were processed

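The authors isolated nuclei from frozen entorhinal cortex pooled per condition, built 10X 3′ v3 libraries and ran Cell Ranger 3.0.1 (3.0.2 in the matrix headers) on mm10 with introns included. They deposited whole-number UMI counts for 31053 genes, without normalization. Their methods name doublet removal in Seurat 4.0.4, and whether it preceded deposit is not given in the sources used here. The members, gene lists and markers were chosen with earlier results of these data known.

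UMIs were summed over nuclei per library and scaled to CPM (Python 3.11.15, numpy 2.4.6, scipy 1.17.1, pandas 2.3.3). Ratios had no pseudocount and exact conditional binomial intervals, and shares Clopper-Pearson intervals. Genes needed 100 UMIs over both libraries to be counted. Named genes are those of the choice, list genes past the fold or most abundant, the extremes among genes with 200 UMIs (500 against other gated nuclei) and subgroup leaders. Others, named for their role, were chosen after their values were seen. Subgroups came from Leiden clustering (scanpy 1.11.5, 1500 variable genes, 15 components, 15 neighbours, resolution 0.5). Scrublet doublet scores removed no nucleus, and free RNA was not subtracted. Calculations were tested on simulated data. Alternatives covered gates, thresholds, scaling, filters and subgroups. Figures used matplotlib 3.10.9. Some genes of these lists are not reported here.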

Additional observations from a re-analysis of the deposited data

How the results depend on the processing

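Over the alternatives tried, the median log2 ratio of OLE to vehicle ran from 0.41 to 0.58 for the ER list, from 0.29 to 0.40 for the other chaperones and from 0.58 to 0.75 for ribosomal proteins, which gave no value with at least 500 UMIs per gene. The median of the adhesion list was -0.15 with median-of-ratios scaling. The counts of called genes depended on the filter. With at least 20 UMIs per gene, 1763 genes were higher and 327 lower in OLE members, 283 higher and 305 lower than in other gated nuclei, and 1481 differed between the sets. With at least 500 UMIs these were 94, 6, 70, 49 and 38. Genes lower in OLE numbered 82 with median-of-ratios scaling and 74 with every nucleus weighted equally. Without the Prox1 and mixed subgroups, 356 genes were higher and the share differed by -2.13 points. In this setting and the next, the nuclei left out were also taken out of the gated nuclei. Where members with a Prox1 UMI or in the top 10% for markers of other classes were left out instead (6 vehicle and 61 OLE nuclei), 361 were higher and the share differed by -2.18 points. Adarb2 and Sema5a then had log2 ratios of -0.20 and -0.028, and -0.21 and -0.0085 without the subgroups. With scores from thinned counts, 367 of the 484 members were kept, Il1rapl2 had -0.52 and Smoc1 0.23. The cause was not tested. The alternatives without subgroups, by that gene rule and without top nuclei were chosen after seeing the data. No paired analysis was possible because each condition has 1 library. Genes with few UMIs are limited by depth: the interval of Foxp2, with 53 and 103 UMIs, spans 0.40 to 1.40.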
